A study of Mus musculus with 8 samples.

Results

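The SPARC family was followed in lung endothelial cells (ECs) of neonatal mice reared in normoxia or hyperoxia. It comprised the 8 genes Sparc, Sparcl1, Spock1, Spock2, Spock3, Smoc1, Smoc2 and Fstl1, out of 54532 genes in the deposited table. The members were taken by gene name as relatives of Sparc, and Sparcl1 was picked for its fall in hyperoxia. The change of Sparcl1 is therefore described here without a test. RNA-seq was done in bulk on lung ECs of WT C57BL/6J pups at postnatal day 14. Normoxia was room air with 21% O2 and hyperoxia was 80% O2, each kept up from the day of birth, with 4 libraries per group. Prolonged hyperoxia after birth serves as a mouse model of bronchopulmonary dysplasia, in which alveoli and lung vessels develop poorly. Per the study's methods, CD45-positive leukocytes were removed with beads and ECs were then captured on beads carrying an antibody to CD31, so cells of other lung types can be carried over. Nursing dams were rotated between both groups every day. The labels do not say whether a library held 1 pup or several, so p-values measure the spread between these libraries.

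SPARC, also called osteonectin, is a secreted matricellular protein. Such proteins lie in the extracellular matrix and alter how cells attach to it and respond to growth factors, without forming its scaffold. SPARC binds collagens through a calcium-binding domain that all members of the family carry in some form. SPARCL1 (hevin) is its closest relative and is made by many vessels. The SPOCK proteins (testicans) are proteoglycans with domains like those of protease inhibitors, the SMOC proteins are found in basement membranes and modulate bone morphogenetic protein (BMP) signalling, and FSTL1 is a secreted glycoprotein that binds BMPs and is needed for lung development.

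Sparc and Sparcl1 moved in opposite directions, so the likeness of their transcripts was examined first. Their coding sequences could be aligned over 545 bases, with 393 identical (72.1%), out of 906 coding bases in Sparc and 1950 in Sparcl1. The longest run that any Sparc transcript shared with any Sparcl1 transcript was 14 bases. The stretch around this run is shown because it holds the longest identical run of both messages. It lies in exon 7 of 10 of Sparc at chr11:55399229-55399302 and in exon 8 of 11 of Sparcl1 at chr5:104087062-104087135, both coding and on the minus strand (GRCm38, GENCODE M21 transcripts). Capitals mark the shared run.
Sparc: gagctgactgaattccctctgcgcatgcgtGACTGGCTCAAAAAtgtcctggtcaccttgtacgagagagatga
Sparcl1: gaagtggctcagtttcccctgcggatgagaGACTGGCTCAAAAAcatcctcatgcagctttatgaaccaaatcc
Over all pairs of members the longest shared run was 33 bases, between Smoc1 and Smoc2, and the next was 31 bases, between Spock2 and Spock3. No exon of any member overlapped an exon of another gene in the annotation. The coordinates of all 8 members were the same in the table and in GENCODE M21.

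Promoter sequences of RefSeq (GRCm38.p6), windows of 300 bases around the start of transcription, were found for 5 of the 8 members. Those of Sparc, Fstl1 and Spock2 are printed, because these members rose in hyperoxia. Capitals mark GGAGG (GA box) and GGGCGG (GC box) on either strand. These motifs can overlap.
Sparc, chr11:55420031-55420330, minus strand: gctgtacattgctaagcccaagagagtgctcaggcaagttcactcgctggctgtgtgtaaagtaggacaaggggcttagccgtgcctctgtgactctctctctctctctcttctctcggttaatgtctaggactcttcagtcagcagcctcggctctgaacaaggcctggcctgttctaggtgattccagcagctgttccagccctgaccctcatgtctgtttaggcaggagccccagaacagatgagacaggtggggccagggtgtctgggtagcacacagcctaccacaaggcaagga
Fstl1, chr16:37776805-37777104, plus strand: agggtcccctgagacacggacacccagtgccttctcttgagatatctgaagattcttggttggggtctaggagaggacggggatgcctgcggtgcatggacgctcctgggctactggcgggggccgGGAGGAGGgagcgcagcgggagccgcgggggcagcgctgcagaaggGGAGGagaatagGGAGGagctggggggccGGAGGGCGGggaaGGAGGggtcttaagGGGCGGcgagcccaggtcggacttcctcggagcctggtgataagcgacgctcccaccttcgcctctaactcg
Spock2, chr10:60106007-60106306, plus strand: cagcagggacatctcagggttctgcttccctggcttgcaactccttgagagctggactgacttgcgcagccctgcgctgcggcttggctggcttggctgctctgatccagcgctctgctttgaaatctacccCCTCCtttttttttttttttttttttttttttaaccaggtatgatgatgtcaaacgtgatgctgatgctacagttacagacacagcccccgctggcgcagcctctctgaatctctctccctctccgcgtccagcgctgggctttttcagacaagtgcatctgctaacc
GGAGG was found 6 times in the Fstl1 window, 1 time in the Spock2 window and 0 times in the Sparc window. GGGCGG was found 2 times in the Fstl1 window and in neither of the others. Of 32851 promoter windows of the same length, 72.9% held GGAGG and 35.7% held GGGCGG. The RefSeq start used for Sparc lies inside the gene as the table gives it, which begins further upstream.

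The libraries held 16098086 to 18300730 counts, and 15564 genes passed the filter on low counts. CPM denotes read counts scaled to the usual common library total after TMM normalisation. A gene was past the test at an adjusted p under 0.05 in edgeR's quasi-likelihood test with Benjamini-Hochberg adjustment over all genes that passed the filter. The EC label was checked with 10 pan-endothelial markers, whose summed level was 15945 to 16868 CPM in normoxia and 15501 to 16332 CPM in hyperoxia. Among them Cdh5, which encodes VE-cadherin, stood at 4121 and 4035 CPM and the CD31 gene Pecam1 at 2902 and 2822 CPM. Of the 10 markers 3 were higher (Cldn5, Kdr and Emcn) and 3 lower (Tek, Tie1 and Erg), and the median log2 fold change was -0.04. Among all genes tested, 18.5% were higher and 17.1% lower. Tek, an angiopoietin receptor, had the largest change, from 1182 to 682 CPM. The 6 leukocyte markers, of which 0 were higher and 1 was lower, summed to 109 to 209 CPM in normoxia and 107 to 192 CPM in hyperoxia, with the CD45 gene Ptprc at 38.4 and 38.3 CPM and Csf1r at 40.2 and 36.1 CPM. The lower one was the macrophage marker Cd68 (40.8 and 25.7 CPM). Markers of epithelial cells were raised in hyperoxia, and hyperoxia 3 had the lowest level of these in its group, as given beside Spock2.

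Of the 8 members, 5 passed the filter on low counts. These were Sparc, Sparcl1, Fstl1, Spock2 and Smoc1. The 4 other than Sparcl1 were taken by name, with earlier results of these data known. Among these 4, Sparc, Fstl1 and Spock2 rose and Smoc1 was not past the test. Over all genes tested, 35.6% were past it, 18.5% higher and 17.1% lower in hyperoxia. Among the same 4, Sparc, Fstl1 and Spock2 had groups that did not overlap in CPM, and Smoc1 had groups that did. The groups of Sparcl1 were apart too, but it was chosen for its fall and is not counted here. Over all genes tested, the groups were apart in 35.4%, with 17.8% higher and 17.6% lower in hyperoxia. In bulk samples, fewer cells of a type and less RNA per cell cannot be told apart.

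**Figure D1:**
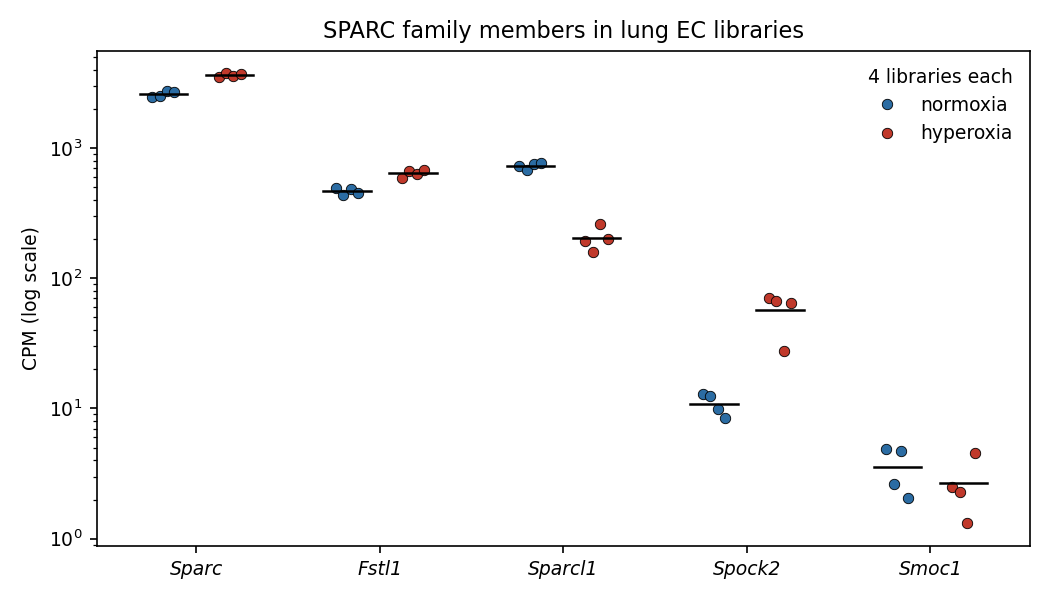
Levels of the 5 SPARC family members that passed the filter, in CPM on a log axis. Each point is 1 library (4 normoxia in blue, 4 hyperoxia in red), points are spread sideways for sight only, and the black line is the group mean. Sparc and Fstl1 lie higher in all 4 hyperoxia libraries, Sparcl1 lies lower in all 4, Spock2 is higher with 1 library (27.4 CPM) below the rest of its group, and Smoc1 overlaps.

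Sparc (ENSMUSG00000018593, chromosome 11, 55394500 to 55423183, minus strand) was the most abundant member. It stood at 2455, 2497, 2737 and 2700 CPM in normoxia 1 to 4 and at 3492, 3747, 3539 and 3707 CPM in hyperoxia 1 to 4. The lowest hyperoxia library lay well above the highest normoxia library. The means were 2597 ± 142 and 3621 ± 125 CPM (SD, n = 4 each), a 1.39-fold rise. On the log2 scale the change was 0.48 (SE 0.0515, edgeR adjusted p 5.24e-05). Per gene length, Sparc ranked 19 in normoxia and 13 in hyperoxia among 22046 protein-coding genes by mean FPKM (fragments scaled for gene length and library total). The message of this collagen-binding protein was thus among the most abundant in both groups.

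Fstl1 (ENSMUSG00000022816, chromosome 16, 37776873 to 37836514, plus strand) rose by nearly the same factor. Its level was 493, 435, 487 and 453 CPM in normoxia 1 to 4 and 587, 663, 636 and 678 CPM in hyperoxia 1 to 4, and the groups did not overlap. The means were 467 ± 27.7 and 641 ± 39.9 CPM (SD, n = 4 each). This 1.37-fold rise was 0.46 on the log2 scale (SE 0.0597, edgeR adjusted p 0.000197). The proportion of Sparc to Fstl1 was also compared. Their FPKM ratio came to 7.23 ± 0.545 (SD) for the 4 normoxia libraries and 7.34 ± 0.267 for those of hyperoxia. Its log2 value differed by 0.0239 between the groups, against SDs of 0.112 and 0.0519, with an exact two-sided permutation p of 0.8 over 70 assignments. The smallest p that 4 against 4 libraries allow is 0.0286, and a p of this size does not show that both genes act alike.

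Sparc and Fstl1 are also expressed by fibroblasts and mural cells, so markers of those cells are given beside them. Of 10 tested fibroblast markers 3 were higher (Dpt, Col13a1 and Dcn) and 1 was lower (Col14a1), against 18.5% and 17.1% of all genes tested. The number higher was 1 without normoxia 2, normoxia 4, hyperoxia 1, hyperoxia 2 or hyperoxia 4 and 7 without hyperoxia 3, and 0 to 1 with limma. The median log2 fold change of the 10 was 0.68. The 11 markers summed to 84.7 to 116 CPM in normoxia and 85.7 to 122 CPM in hyperoxia, a sum made up mostly of Col14a1, which fell. The most abundant, Col14a1, stood at 71.97 and 54.3 CPM, and Dpt at 8.43 and 18.2 CPM. Among the defining markers Pdgfra stood at 3.08 and 4.71 CPM and Lum at 0.135 and 0.239 CPM. Dcn stood at 0.359 and 1.18 CPM (log2 fold change 1.71, edgeR adjusted p 0.0166). It passed the filter only through its hyperoxia libraries, so nothing is read from its call. Of 10 tested mural and myofibroblast markers 7 were higher and 0 lower. The 11 markers summed to 40.3 to 92.4 CPM in normoxia and 81.6 to 204 CPM in hyperoxia, with Postn at 20.5 and 60.5 CPM and Pdgfrb at 9.72 and 19.9 CPM. Hyperoxia 3 had the lowest mural sum of its group, at 81.6 CPM, below normoxia 1 at 92.4 CPM. Without hyperoxia 3, the log2 fold changes were 0.49 for Sparc and 0.46 for Fstl1. The part of these cells in both rises was not tested.

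Sparcl1 (ENSMUSG00000029309, chromosome 5, 104079111 to 104113733, minus strand) was the member chosen for its fall. It stood at 726, 677, 748 and 764 CPM in normoxia 1 to 4 and at 192, 160, 258 and 201 CPM in hyperoxia 1 to 4. All hyperoxia libraries lay below all normoxia libraries, and hyperoxia 3 was the highest of its group. The means were 729 ± 38.2 and 203 ± 41.1 CPM (SD, n = 4 each). The log2 fold change was -1.85 (SE 0.121), which is 3.60-fold lower in hyperoxia. Over all genes tested, 1.36% were lower past the test by a log2 fold change of 1 or more, and nothing is read from this since Sparcl1 was chosen by its fall. By mean FPKM its rank among protein-coding genes moved from 104 in normoxia to 621 in hyperoxia.

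**Figure D2:**
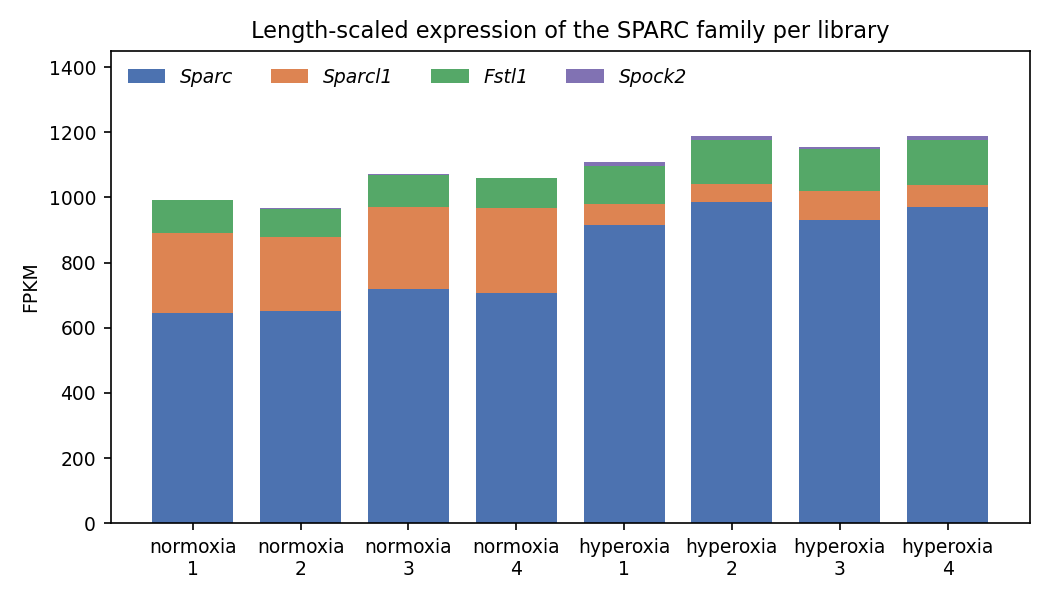
Deposited FPKM of the SPARC family stacked by library (8 bars, 4 per group), which allows levels of different genes to be compared. Sparc, Sparcl1, Fstl1 and Spock2 are drawn, and the other members are too low to be seen. The Sparcl1 band shrinks from 227 to 258 FPKM in normoxia to 54.3 to 87.8 FPKM in hyperoxia, while the bar as a whole rises.

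On the FPKM scale, which corrects for gene length, the order of the members differed between the groups. In normoxia it was Sparc (680 ± 38.1 FPKM), Sparcl1 (246 ± 13.7), Fstl1 (94.3 ± 5.91), Spock2 (1.96 ± 0.369) and Smoc1 (1.02 ± 0.417; SD, n = 4 each). In hyperoxia it was Sparc (951 ± 33.9 FPKM), Fstl1 (129.8 ± 8.24), Sparcl1 (68.7 ± 14.0), Spock2 (10.3 ± 3.62) and Smoc1 (0.756 ± 0.385). Neighbours in each order did not overlap over the libraries, so Fstl1 lay below Sparcl1 in 4 of 4 normoxia libraries and above it in 4 of 4 hyperoxia libraries. The lowest Spock2 library of normoxia, at 1.53 FPKM, was close to the highest Smoc1 library, at 1.39 FPKM.

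The members' FPKM summed to 1024 ± 50.9 in normoxia and 1160 ± 37.2 in hyperoxia. Sparc made up 66.4 ± 1.07% of this sum in normoxia and 81.9 ± 0.963% in hyperoxia. Sparcl1 made up 24.1 ± 0.608% and 5.93 ± 1.25%, and Fstl1 9.22 ± 0.590% and 11.2 ± 0.363% (SD, n = 4 each). The ratio of Sparc to Sparcl1 FPKM was 2.62 to 2.86 in normoxia and 10.6 to 18.2 in hyperoxia, lowest in hyperoxia 3. These shares contain Sparcl1 and are descriptions. On CPM, without correction for length, the share of Sparc was 68.2 ± 1.14% and 80.0 ± 0.664%.

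The genes whose pattern lay closest to that of Sparcl1 over the 8 libraries were Glb1l3, Mctp1, Cyp26b1 and Wif1. Closeness was the root mean square difference of log2 CPM after the normoxia mean was subtracted, among 9076 protein-coding genes with at least 10 CPM, and it was 0.24, 0.26, 0.26 and 0.30. Wif1, a secreted Wnt antagonist, went from 109 to 29.5 CPM. Cyp26b1, an enzyme that breaks down retinoic acid, went from 152 ± 23.6 to 50.0 ± 15.3 CPM. Glb1l3, a protein related to beta-galactosidase, went from 16.1 to 4.18 CPM, and Mctp1, a membrane protein with C2 domains, from 22.1 to 7.47 CPM. All were chosen for a fall like that of Sparcl1, and within hyperoxia their libraries did not keep the same order. Cyp26b1 and Mctp1 were, like Sparcl1, highest in hyperoxia 3, while Wif1 was lowest there.

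Markers of EC subtypes are given beside Sparcl1, and their counts stand against 18.5% higher and 17.1% lower among all genes tested. Of 6 general capillary (gCap) markers 4 were lower and 1, Cd93, was higher in hyperoxia, with a median log2 fold change of -0.64. The number higher was 0 with the replicate number as a block (the labels state no pairing) and without normoxia 1, normoxia 3, hyperoxia 2 or hyperoxia 3. The 6 genes summed to 8644 to 9993 CPM in normoxia and 7169 to 8327 CPM in hyperoxia, highest in hyperoxia 3 within its group. The most abundant were Ptprb (3691 and 2488 CPM) and Cd93 (1979 and 2320 CPM). Among the falling markers Kit, a receptor tyrosine kinase, was 939 and 384 CPM, Aplnr, the apelin receptor, was 531 and 304 CPM and Gpihbp1, which anchors lipoprotein lipase, was 464 and 282 CPM. All 6 aerocyte capillary (aCap) markers were higher. Their sum went from 1035 to 1434 CPM in normoxia to 2293 to 2737 CPM in hyperoxia, with Apln at 323 and 920.3 CPM and Tbx2 at 316 and 614 CPM. Of the arterial markers 4 of 7 were lower and 0 higher, with sums of 2093 to 2576 and 1555 to 1706 CPM, led by Efnb2 (1329 and 967 CPM) and Sox17 (409 and 293 CPM). Of 5 tested venous markers 4 were higher and 0 lower, with sums of 2026 to 2618 and 2251 to 3107 CPM. With 1 library left out, 3 to 5 were higher. The most abundant, Vwf (2071 and 2428 CPM), was not past the test (log2 fold change 0.23, edgeR adjusted p 0.107). Slc6a2 (157 and 261 CPM) was next and was past it. What these capillary and large-vessel markers share with Sparcl1 was not tested.

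**Figure D3:**
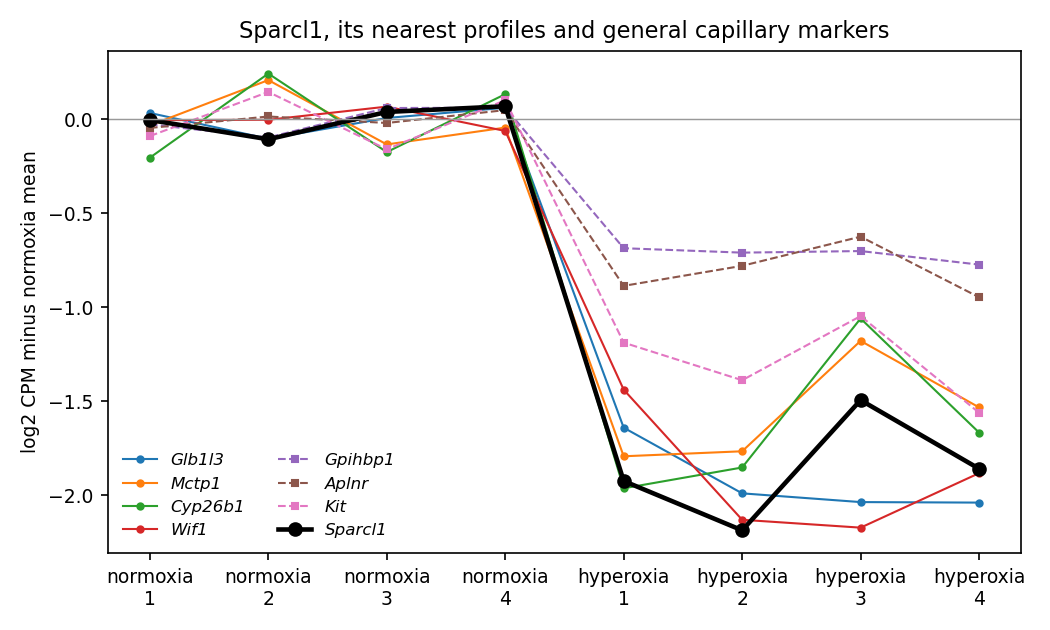
Log2 CPM of Sparcl1 (black), its 4 nearest profiles (solid lines) and 3 of the 4 gCap markers that fell (dashed lines, picked after their values were seen) in the 8 libraries, each minus its normoxia mean. The other gCap markers, Ptprb (log2 fold change -0.57), Plvap (0.01) and Cd93 (0.23), are not drawn. Lines join the points of 1 gene and imply no order of libraries. Sparcl1 lies between -2.19 and -1.49 in hyperoxia, below these 3 markers in every hyperoxia library.

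Spock2 (ENSMUSG00000058297, chromosome 10, 60106219 to 60135198, plus strand) had the largest rise of the members. Its level was 12.9, 12.4, 9.90 and 8.51 CPM in normoxia 1 to 4 and 70.5, 67.2, 27.4 and 64.8 CPM in hyperoxia 1 to 4. Every hyperoxia library lay above every normoxia library, and hyperoxia 3 stood far below the other 3. The means were 10.9 ± 2.07 and 57.5 ± 20.2 CPM (SD, n = 4 each), a 5.27-fold rise. The change was 2.40 on the log2 scale (SE 0.272, edgeR adjusted p 7.49e-05), and without hyperoxia 3 it was 2.63 (SE 0.120). Of all genes tested, 5.62% were past the test and higher by a log2 fold change of 1 or more.

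Spock2 is known as a gene of alveolar type 1 (AT1) epithelial cells in the lung, and markers of those cells moved with it. All 8 AT1 markers were higher in hyperoxia (18.5% of all genes tested), with a median log2 fold change of 2.81. They summed to 96.4, 82.4, 80.9 and 77.6 CPM in normoxia 1 to 4 and to 476, 444, 165 and 425 CPM in hyperoxia 1 to 4. The most abundant, Ager, stood at 25.4 and 153 CPM and Hopx at 42.2 and 65.5 CPM. Hopx, the largest part of the AT1 sum in normoxia, had a log2 fold change of 0.63. Hyperoxia 3 was thus the lowest of its group in the AT1 sum as in Spock2. Spock2 on CPM came to 13.3, 15.0, 12.2 and 11.0% of the AT1 sum in normoxia 1 to 4 and to 14.8, 15.1, 16.6 and 15.2% in hyperoxia 1 to 4. Alveolar type 2 (AT2) markers were also higher, 8 of 8. Their median log2 fold change was 3.001, with sums of 237 to 335 CPM in normoxia and 759 to 2287 CPM in hyperoxia, lowest in hyperoxia 3. Spock2 came to 3.59 to 4.61% of the AT2 sum in normoxia and 2.98 to 3.61% in hyperoxia. The percentage thus lay mostly higher in hyperoxia for the AT1 sum and mostly lower for the AT2 sum. For both sums the 2 groups overlapped. Sftpc stood at 106 and 1121 CPM and Abca3 at 110.2 and 145 CPM. Of 5 mesothelial markers 2 passed the filter and were higher, with sums of 0.552 to 2.14 and 3.95 to 11.9 CPM. They were Krt19 (0.899 and 7.24 CPM) and Msln (0.266 and 1.47 CPM), while Wt1, Lrrn4 and Upk3b were near 0 in both groups. Krt19 and Msln passed the filter only through their hyperoxia libraries, so nothing is read from this count. The part of epithelial cells in the rise of Spock2 was not tested.

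**Figure D4:**
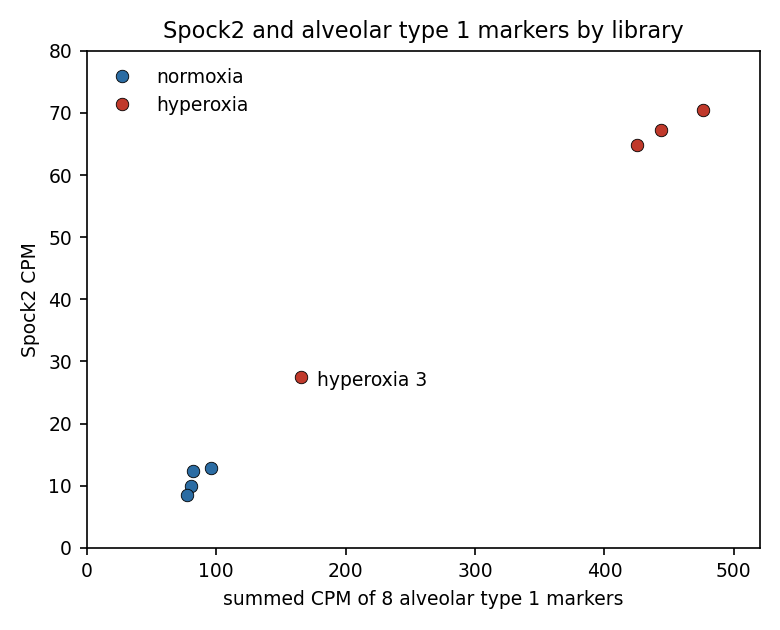
Spock2 in CPM against the summed CPM of 8 AT1 markers in the 8 libraries, normoxia in blue and hyperoxia in red. Normoxia libraries lie at the lower left (77.6 to 96.4 CPM of AT1 markers), 3 hyperoxia libraries at the upper right, and hyperoxia 3 between them, at 165 CPM of AT1 markers and 27.4 CPM of Spock2.

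Smoc1 (ENSMUSG00000021136, chromosome 12, 81026808 to 81186414, plus strand) was expressed at a low level and did not pass the test. It had 80, 46, 85 and 37 counts in normoxia 1 to 4 and 44, 40, 23 and 82 counts in hyperoxia 1 to 4. On CPM these were 4.90, 2.62, 4.76 and 2.04 against 2.51, 2.27, 1.32 and 4.55, and the groups overlapped. The change was -0.42 on the log2 scale (SE 0.381, edgeR adjusted p 0.424), and the counts of both groups spread widely between libraries. Without hyperoxia 4 it was -0.81 and without hyperoxia 3 it was -0.20.

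Smoc2, Spock1 and Spock3 did not pass the filter. Smoc2 (ENSMUSG00000023886, chromosome 17, 14279506 to 14404790) had 1, 0, 0 and 0 counts in normoxia 1 to 4 and 1, 4, 3 and 6 counts in hyperoxia 1 to 4. That is 1 count against 14, a depth-scaled ratio of 13.6 with an exact 95% binomial interval of 2.07 to 576 that covers counting error only. Over the libraries the exact two-sided permutation p was 0.0571. In edgeR without the filter, its adjusted p was 0.0443 over 30282 genes. Spock1 (ENSMUSG00000056222, chromosome 13, 57421195 to 57908332) had 0, 0, 1 and 0 counts in normoxia and 3, 1, 1 and 1 in hyperoxia. Its ratio was 5.84 (interval 0.709 to 269), with an exact permutation p of 0.0571 and an unfiltered edgeR adjusted p of 0.294. Spock3 (ENSMUSG00000054162, chromosome 8, 62951009 to 63357103) had 0 counts in all 8 libraries. A count of 0 allows up to 3 counts per library, which is 0.166 to 0.184 CPM.

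Genes that the SPARC proteins are known to bind or that act on them were taken from fixed lists. Over all genes tested the median log2 fold change was -0.0040, and 18.5% were higher and 17.1% lower past the test. These shares stand beside the counts of each partner list. SPARC binds fibrillar collagens and collagen IV of the basement membrane. Of 7 such collagen genes 6 were higher and 0 lower, with a median log2 fold change of 0.59. The number higher was 5 without normoxia 2, normoxia 4, hyperoxia 2 or hyperoxia 4, and 1 was lower without hyperoxia 2. The groups did not overlap in 4 of the 7, against 35.4% of all genes tested. Col4a1 went from 8982 ± 380 to 12724 ± 373 CPM (log2 fold change 0.50, edgeR adjusted p 2.07e-05) and Col4a2 from 5694 ± 196 to 8550.5 ± 295 CPM (0.59, adjusted p 6.19e-06). These collagen IV chains rose by about as much as Sparc. Col1a1, a fibrillar collagen chain, showed the largest change, from 24.4 ± 6.69 to 71.2 ± 25.6 CPM (1.55, adjusted p 0.00134). Of the mural and myofibroblast markers given above, 7 of 10 were also higher (median log2 fold change 1.17). Hyperoxia 3, with the lowest mural sum of its group, had 22211 CPM of summed collagens, within its group's 21487 to 23035 CPM. Normoxia 1, with the highest mural sum of its group, had the lowest collagen sum, 14530 CPM. The collagen sums are made up mostly of Col4a1 and Col4a2, so they say little of the fibrillar chains. Without hyperoxia 3, Col1a1 changed by 1.77 (SE 0.173, against 0.273 with it), Col4a1 by 0.50 and Col4a2 by 0.58. Without normoxia 1, Col1a1 changed by 1.75 (SE 0.284), Col4a1 by 0.47 and Col4a2 by 0.56. The part of mural cells and myofibroblasts in the rise of the collagens was not tested.

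Of 8 tested proteases and transglutaminase 4 were higher and 0 lower, with a median log2 fold change of 0.36. They comprised enzymes that cut or crosslink SPARC proteins and targets of SPOCK proteins. Mmp14, a membrane-bound metalloproteinase, stood at 285 ± 4.46 and 266 ± 4.14 CPM, with a log2 fold change of -0.10 and an edgeR adjusted p of 0.0752, although its groups did not overlap. DESeq2 gave it an adjusted p of 0.0338, and over 17 alternatives it ran from 0.0334 to 0.310. Ctsb, cathepsin B, rose from 233 ± 24.6 to 298 ± 25.0 CPM (0.36, adjusted p 0.00607). Adamts4, a protease that cleaves SPARCL1, rose from 4.67 ± 0.799 to 11.8 ± 3.76 CPM (1.34, adjusted p 0.00156).

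Of 9 receptors and integrins 6 were higher and 1, Itga5, was lower, with a median log2 fold change of 0.35. The number lower was 0 without normoxia 2, normoxia 4, hyperoxia 1 or hyperoxia 4. Stab1, a scavenger receptor that takes up SPARC, rose from 585 ± 11.8 to 867.9 ± 33.9 CPM (0.57, adjusted p 5.33e-06). Itgb1, the integrin beta 1 chain, rose from 1616 ± 57.2 to 2000 ± 69.2 CPM (0.31, adjusted p 0.000471). Tlr4, a receptor reported to bind FSTL1, rose from 12.0 ± 1.45 to 22.5 ± 1.78 CPM (0.91, adjusted p 6.31e-05). These p-values are from edgeR.

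Growth factors and receptors of the platelet-derived growth factor, vascular endothelial growth factor, transforming growth factor beta and BMP pathways moved in both directions. Of 15 tested 6 were higher and 6 lower (18.5% and 17.1% of all genes tested), with a median log2 fold change of 0.08. With 1 library left out, 4 to 6 were higher and 5 to 6 lower. Kdr, a receptor for vascular endothelial growth factor, went from 1956 ± 64.8 to 2222 ± 50.9 CPM (0.18, edgeR adjusted p 0.00705). Bmpr2, a BMP receptor, went from 1398 ± 118 to 1205 ± 31.3 CPM (-0.21, adjusted p 0.0182), and was no longer past the test without normoxia 4 (0.0512) or hyperoxia 4 (0.0525). Bmpr1a, a further BMP receptor, rose from 2.25 ± 0.583 to 9.05 ± 3.27 CPM (2.01, adjusted p 0.000411). Without hyperoxia 3, which had the lowest epithelial and mural sums of its group, the Bmpr1a change was 2.23 (SE 0.196, against 0.295 with it). The part of other cell types in the rise of Bmpr1a was not tested. All SDs are over 4 libraries.

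**Figure D5:**
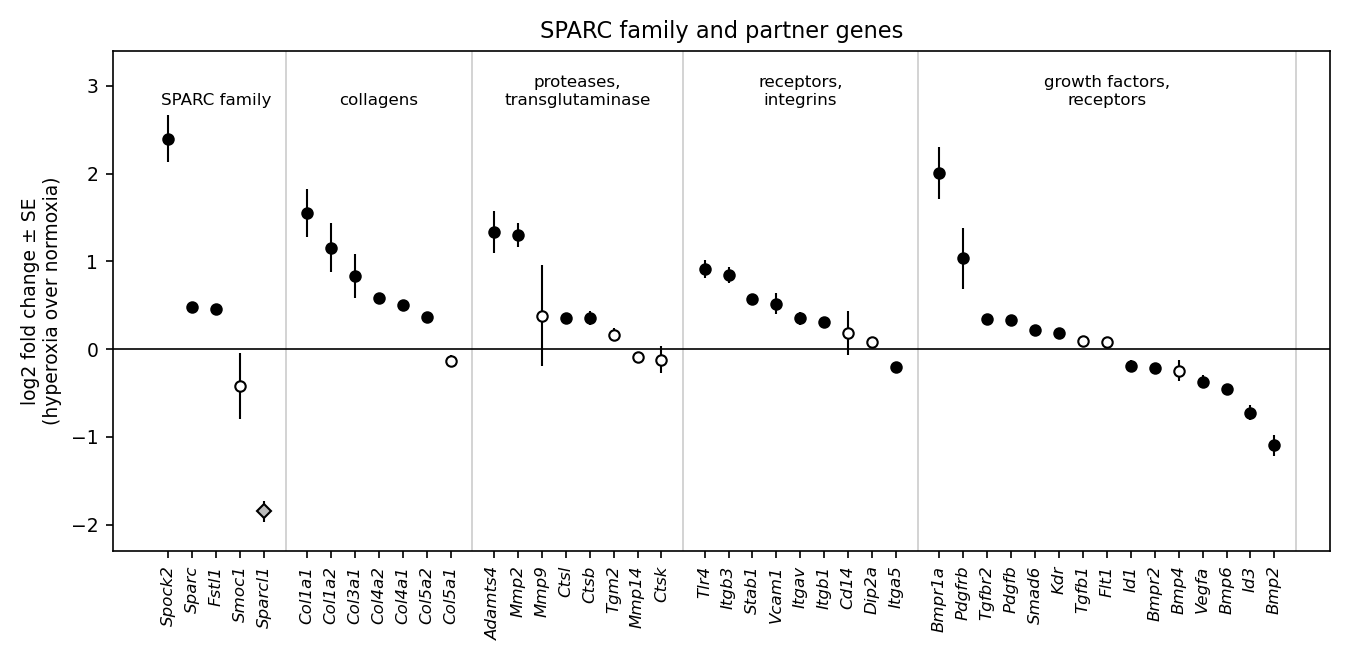
Log2 fold change of hyperoxia over normoxia with its SE for the SPARC family and its partner genes that passed the filter, grouped by list. Filled circles are past the edgeR test (adjusted p under 0.05), open circles are not, and the grey diamond is Sparcl1, which is described without a test. Most collagens and receptors lie above 0, and the growth factor list is split, from Bmpr1a at 2.01 down to Bmp2 at -1.10.

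The genes with the profile most like that of Sparc were Il1r1, Gnl3l, Trib2 and Actb, with a root mean square difference of 0.03, 0.03, 0.04 and 0.04 on log2 CPM by the same measure. Actb, cytoplasmic beta-actin, went from 1189.5 ± 52.8 to 1668 ± 37.1 CPM, and Trib2, a pseudokinase, from 258 ± 11.3 to 359 ± 9.16 CPM. Il1r1, a receptor for interleukin 1, went from 31.9 to 45.1 CPM and Gnl3l, a nucleolar GTPase, from 42.4 to 58.0 CPM. All were chosen for this likeness.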

How the data were processed

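Bulk RNA-seq counts were compared between 4 normoxia and 4 hyperoxia libraries, grouped by title. The authors deposited whole-number counts per gene and a table of FPKM for the same 54532 genes. Per the submitters' processing notes, HISAT2 2.0.5 and featureCounts 1.5.0-p3 were used with build mm10, and the use of strand and of reads that match several places is not given in the sources used here. FPKM was the deposited count scaled by gene length and library total, apart from 1 constant per library (relative deviation up to 1.15e-08).

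Counts were tested with edgeR 4.0.16 in R 4.3.3 (TMM, filterByExpr, quasi-likelihood test, group as the only term). SE follows from the F statistic. DESeq2 1.42.0, limma 3.58.1, other filters and scalings, limma on log2(FPKM + pseudocount) and leaving out each library were alternatives. The fit was tested on simulated counts of 15564 genes, of which 200 were changed. It recovered 77 of 100 genes changed by a log2 fold change of 1 and 96 of 100 changed by 2, with 8 false calls. In the real libraries a far larger share, 35.6%, was past the test, so these rates do not carry over to them. Sequences came from GENCODE M21 and RefSeq and were aligned with Biopython 1.88. The members and lists were chosen with earlier results of these data known. Genes named from partner lists were the 2 most abundant and the largest change past the test, and from cell type lists the 2 most abundant. Libraries of 1 group differed beyond counting noise (chi-square over its degrees of freedom 5.11 to 18.5), so each was kept as a replicate. Other cell type markers that are named, such as Tek, Cd68, Dcn, Kit, Aplnr and Gpihbp1, and Itga5 were added after their values were seen.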

Additional observations from a re-analysis of the deposited data

Results flagged for a closer look

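The Spock2 level of hyperoxia 3 was 27.4 CPM, while the remaining libraries of its group held 64.8 to 70.5 CPM. Its gap to the nearest library was 0.869 of the group's range, above Dixon's critical value for 4 libraries at the 95% level. Of 16 groups examined, 1 passed this limit, and chance gives 0.8.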

How the results depend on the processing

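The 4 tested members kept their direction and their side of the adjusted p of 0.05 under all 17 alternatives. The log2 fold change ran from 0.45 to 0.51 for Sparc (adjusted p 4.82e-20 to 0.000793), 0.42 to 0.50 for Fstl1 (4.89e-12 to 0.00248), 1.87 to 2.63 for Spock2 (8.07e-12 to 0.000938) and -0.81 to -0.20 for Smoc1 (0.118 to 0.709), and from -1.99 to -1.75 for Sparcl1 with no test. The number of genes past the test was 5535, ran from 4530 to 5340 with 1 library left out, and was 4792 with the replicate number as a block. The labels do not say whether the numbers pair the libraries. The correlation of same-numbered libraries' deviations ran from -0.14 to 0.12, and that of differently numbered ones from -0.25 to 0.28. So few values cannot exclude a shared litter or batch. Under the replicate block the log2 fold changes were 0.48 for Sparc, 0.46 for Fstl1, 2.33 for Spock2, -0.45 for Smoc1 and -1.87 for Sparcl1. The Sparc share of the summed family FPKM was 15.5 percentage points higher in hyperoxia, 15.0 to 15.9 with 1 library left out and 11.8 as a share of CPM, where length is not corrected. Smoc2, Spock1 and Spock3 gave no fit with the filter. With library totals in place of TMM, 2644 of 5675 calls were higher (46.6%), against 2875 of 5535 (51.9%). Low counts limit the 3 members that did not pass the filter, while Smoc1 ranged from 37 to 85 counts over normoxia and 23 to 82 over hyperoxia libraries. The alternatives for the partner genes and nearest profiles were chosen after seeing the data. Of these genes, Mmp14 passed the test under DESeq2 and library totals, Bmpr2 lost it without normoxia 4 or hyperoxia 4, and Glb1l3, Mctp1 and Il1r1 had smaller changes on log2(FPKM + 1), at -1.46, -0.95 and 0.43.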
